A study of Mus musculus with 24 samples.

Results

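Pro-B and pre-B cells of irradiated mice with 1 functional Pax5 allele (Pax5+/-) were compared with the same kind of cells of irradiated wild-type mice before leukemia arose. The comparison used 10 of the 24 arrays of the series, namely those labelled preleukemic: 7 of Pax5+/- mice and 3 of wild-type mice (WT). All of these mice received 2 Gy of radiation, and the labels place the cells 3 weeks after it. There were no unirradiated mice among the groups, so the radiation is shared by both sides of the comparison and its own effect was not measured. The sources used here do not give the strain or age of the mice, nor how the Pax5 allele was made. The other 14 arrays were of leukemic marrow (10 Pax5+/-, 4 wild type), and their labels give the same 2 Gy and 3 weeks. They served only to see whether a genotype difference was also present in samples that the comparison did not use.

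Pax5 is a transcription factor that fixes the B-cell identity of lymphoid progenitors: it switches on genes of the B-cell receptor and its signalling and switches off genes of other lineages. Pro-B and pre-B cells rearrange their immunoglobulin genes, depend on interleukin-7 and divide between the rearrangement steps. Heterozygous loss of Pax5 is a common lesion of B-cell precursor acute lymphoblastic leukemia, and the comparison sets Pax5+/- beside wild-type cells before disease. Whether a difference between the groups comes from reduced Pax5 was not tested.

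The values are log2 signals after robust multi-array averaging (RMA), which puts all arrays on 1 scale, so a difference of 1 is a 2-fold change. Of 19938 named genes, 15059 were bright enough to be tested, and array medians ran from 6.23 to 6.30. The 26 tested pro-B and pre-B genes together averaged 10.52 to 10.70 on the Pax5+/- arrays. Their signals varied widely: Cd79a averaged 13.04, the surrogate light chain gene Igll1 13.04 and the B-lineage factor Ebf1 12.43, but Rag2 8.96 and Kit 6.60. On these arrays the tested T-cell genes together averaged at most 6.14, granulocyte genes 6.81, NK-cell genes 7.09 and erythroid genes 7.43. Single genes of other lineages reached the level of the dimmer markers, such as erythroid Alas2 at 8.67. Replicates are labelled biological, and the design text counts each as a mouse. The sexes were not labelled: Y-linked genes were high on all 3 wild-type arrays and on 4 of 7 Pax5+/- arrays. Wild-type array 1 stood apart, with a first principal component of 51.8 against -12.1 to 1.45 on the other 9 arrays (41.6% of the variance). Counts and leading results are therefore given with all 10 arrays and without wild-type array 1, which leaves 2 wild-type arrays.

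Pax5 itself had a lower mean in Pax5+/- cells, and its call depended on wild-type array 1. It measured 11.47, 12.00 and 12.16 on wild-type arrays 1, 2 and 3, and 11.34 at the lowest, 11.40 at the median and 11.59 at the highest on the 7 Pax5+/- arrays. Wild-type arrays 2 and 3 lay above every Pax5+/- array, and wild-type array 1 lay inside their range. The log2 difference was -0.45 with all arrays, a signal 1.36-fold lower (limma adjusted p = 0.112). A two-sided exact permutation test gave p = 0.0667 when the smaller tail is doubled and p = 0.0333 when splits as large in either direction are counted, so the choice of convention decides whether it passes 0.05. Without wild-type array 1 the difference was -0.65, 1.57-fold (limma adjusted p = 0.0022), and the exact permutation test gave 0.0556, the smallest p that doubling allows for 7 against 2 arrays, or 0.0278 by size. That limma call ended without wild-type array 3 (-0.57, adjusted p = 0.0802). The sources do not say whether the probe set covers the altered part of the allele, so the signal need not equal functional Pax5 RNA.

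Across the genome 81 genes were higher (0.538%) and 176 lower (1.17%) in Pax5+/- cells with all 10 arrays, that is 257 of 15059 or 1.71% (limma, Benjamini-Hochberg adjusted p under 0.05, which defines a call throughout). A change of at least 2-fold was found for 9 of the higher and 39 of the lower genes. Without wild-type array 1 the calls were 145 higher (0.963%) and 215 lower (1.43%), 360 in all or 2.39%. The 2 sets shared 184 genes in the same direction, 58 higher and 126 lower (1.22% of the genes tested), which is 71.6% of the calls with all arrays and 51.1% of the calls without array 1. No gene was called in opposite directions. Because these fits share 9 arrays, their overlap describes the influence of array 1 and is no replication. Of the 184 genes, 182 had groups that did not overlap on the 10 arrays, against 5.52% of all genes tested. The same arrays selected these genes, so this describes the selection and is no further support. The median difference over all genes was -0.01 with and -0.04 without array 1.

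**Figure D1:**
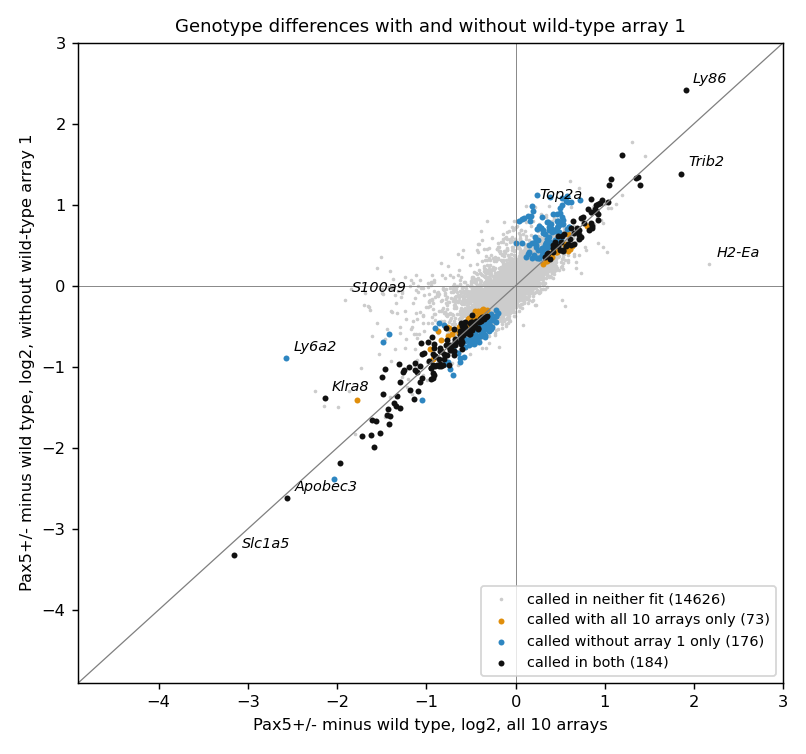
Each point is 1 of 15059 genes, with its Pax5+/- minus wild-type log2 difference over all 10 arrays on the x axis and without wild-type array 1 on the y axis; the diagonal marks equal values and colours mark the calls. Slc1a5, Apobec3 and Ly86 lie far out under both choices, and H2-Ea, S100a9 and Ly6a2 lie off the diagonal because array 1 carries most of their difference.

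A smaller set did not depend on any single array. Calling was repeated with each of the 10 arrays left out in turn, and 96 genes (33 higher, 63 lower) were called every time in 1 direction. Among them were 13 of the 20 genes with the largest differences: Ly86, Mcoln2, Stk38l, Tnnt2 and Cenpv, which were higher, and Slc1a5, Apobec3, Edaradd, Dock9, Slfn2, Scd1, Eps8l1 and Tmc7, which were lower. The count of calls itself did depend on single arrays, with 105 without wild-type array 3 and 156 without Pax5+/- array 7. When 2 wild-type arrays were left out, array 1 and 1 other, a single wild-type array remained and was assumed to vary like the rest. Ly86, Gtse1, Cenpv, Slc1a5, Apobec3, Edaradd, Dock9, Klhl14, Eps8l1, Tmc7, Rps9 and Notch2 kept their calls even so, while those of Mcoln2, Stk38l, Trib2, Ifi44l, Tnnt2, Kit and others ended without array 3 (adjusted p from 0.0502 for Mcoln2). When only arrays with high Y-linked genes were compared, 80 genes were called. All 184 genes called in both sets kept their direction there. For the 182 whose groups did not overlap this was bound to hold, because the arrays were a part of the same 10. With a term for Y-linked genes added, 131 of the 184 kept the call with all arrays.

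The largest fall was in Slc1a5, which encodes a sodium-dependent transporter of glutamine and other neutral amino acids. It measured 11.34, 11.87 and 11.84 on the wild-type arrays and 8.15, 8.60 and 8.87 at the lowest, median and highest Pax5+/- array. The groups were separated by more than 2 log2 units. The difference was -3.15 ± 0.16 (SE), 8.88-fold lower (limma adjusted p = 2.28e-06), and -3.32 without wild-type array 1.

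Apobec3, a cytidine deaminase that restricts retroviruses, showed the most uniform Pax5+/- values of these genes. It measured 11.15, 10.96 and 11.72 in wild-type cells and between 8.64 and 8.80 on all 7 Pax5+/- arrays (SD 0.06). The difference was -2.56 ± 0.13 (SE), 5.89-fold lower (limma adjusted p = 2.28e-06), and -2.62 without array 1.

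Eps8l1, a relative of the actin regulator Eps8, fell as clearly at a lower signal. It was 7.06, 7.29 and 7.43 in wild-type cells and 5.58 to 5.78 in Pax5+/- cells, a difference of -1.56 ± 0.08 (SE; limma adjusted p = 2.28e-06). Edaradd, an adaptor of the ectodysplasin receptor, was 8.77, 9.38 and 9.52 in wild-type cells and 7.06 to 7.56 in Pax5+/- cells (-1.97, 3.91-fold lower, limma adjusted p = 0.000131). Neither gene overlapped between groups.

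Dock9 activates the small GTPase Cdc42. Its wild-type values were 8.55, 8.99 and 8.90, and its Pax5+/- values ran from 6.69 to 7.57 with a median of 7.08. The difference was -1.72 ± 0.18 (SE), 3.30-fold lower (limma adjusted p = 0.000742), and -1.86 without array 1.

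Slfn2, a Schlafen gene linked to lymphocyte quiescence, showed a difference of -1.62 (limma adjusted p = 0.00373), with 9.97, 10.54 and 10.67 in wild-type cells and 8.06 to 9.25 in Pax5+/- cells. Scd1, which makes monounsaturated fatty acids, showed a difference of -1.61 (limma adjusted p = 0.00373), with 10.14, 10.02 and 10.54 against 8.21 to 9.27. For both genes the groups were again separate. In the fit without array 1 both calls ended when wild-type array 3 was left out too (adjusted p = 0.0609 for Slfn2 and 0.196 for Scd1).

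Klhl14, Klra8 and Tmc7 completed the 10 largest falls. Klhl14 was 8.02, 9.35 and 9.11 in wild-type and 6.86 to 7.94 in Pax5+/- cells, so that wild-type array 1 lay just above the highest Pax5+/- array (-1.59, limma adjusted p = 0.0221; adjusted p = 0.0641 without wild-type array 2 and 0.131 without array 3). Tmc7, a transmembrane channel-like gene, was 6.14, 7.09 and 7.02 against 5.14 to 5.39. Of its 7 Pax5+/- values 6 lay at or below the dim level, the 30th percentile of the array, and setting these to that level gave a signal at least 2.67-fold lower.

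Klra8 encodes Ly49H, an activating receptor of natural killer (NK) cells. It measured 8.57, 5.84 and 6.76 on wild-type arrays 1, 2 and 3 and 4.61 to 5.37 on Pax5+/- arrays, 6 of them at or below the dim level, so it was at least 3.32-fold lower with all arrays (limma adjusted p = 0.0275) and at least 1.96-fold lower without array 1 (adjusted p = 0.00794). Its call with all arrays ended without wild-type array 3 (adjusted p = 0.0979) and without any of 6 of the Pax5+/- arrays (up to 0.0585). Its order among the wild-type arrays was that of the other NK-cell genes described below.

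**Figure D2:**
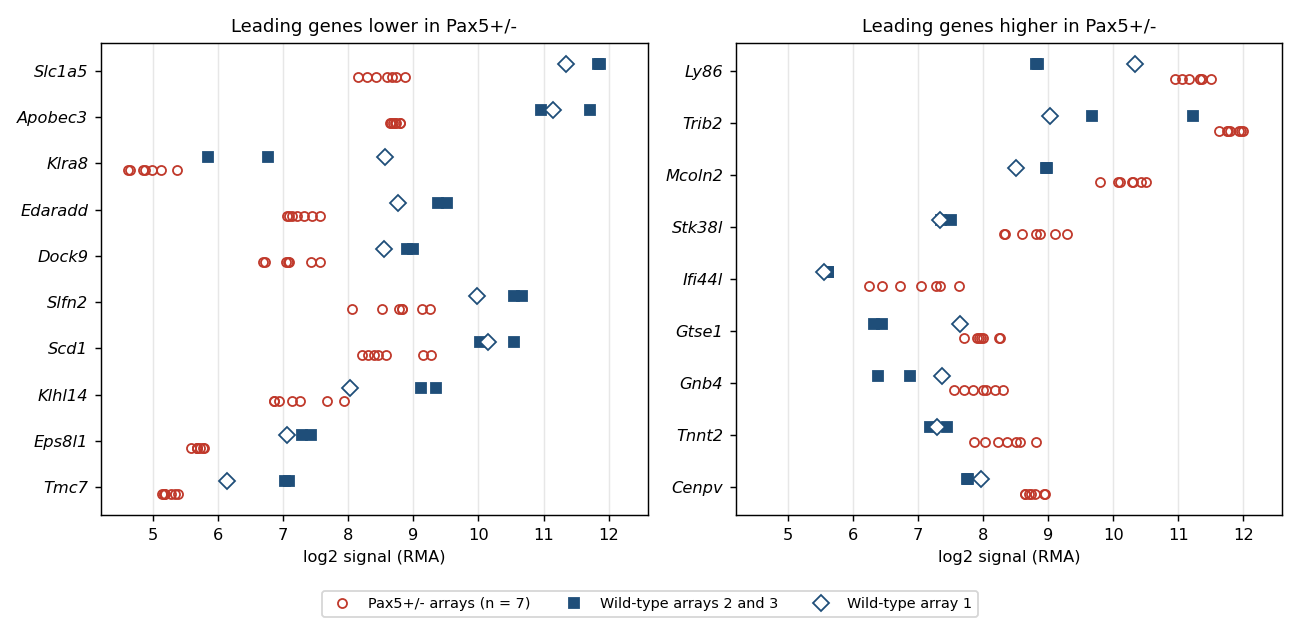
Each row is a gene and each symbol 1 preleukemic array, placed by its log2 signal; open circles are the 7 Pax5+/- arrays, squares wild-type arrays 2 and 3, and the diamond wild-type array 1. In every row the Pax5+/- arrays lie on 1 side of all 3 wild-type arrays, and for example for Ly86, Gtse1, Klhl14 and Tmc7 array 1 lies between the other wild-type arrays and the Pax5+/- arrays.

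Promoters of the called genes were searched for the core letters of the Pax5 paired-domain site, GCGTGAC, on both strands in RefSeq windows from 250 bases before to 50 after each start (GRCm38.p6). They were found in 4 of 99 genes called lower in both sets (4.04%) and in 1 of 50 called higher (2.0%) with a window, against 472 of 11916 genes tested (3.96%) and 2.09% of all windows. The palindromic consensus of Ebf1, the partner of Pax5, occurred in 1 of 99 and 1 of 50, against 1.28% of genes tested, and the 2 motifs overlapped in 0 windows. These shares lie close to the background, and a match is a description of letters, not of binding. Matches to the Pax5 letters were in Dock9, Bcat1, Dclk2 and Myo10, which were lower, and in Dnajc15, which was higher. The windows of Dock9 (chr14:121797685-121797984, minus strand, 1 of its 3 windows), Bcat1 (chr6:145048763-145049062, minus strand, 1 of its 2 windows) and Dnajc15 (chr14:77874868-77875167, minus strand) are shown to let the surroundings of the matches be compared, with the matched letters in capitals. They begin at base -26, 15 and 35 from the start.
Dock9: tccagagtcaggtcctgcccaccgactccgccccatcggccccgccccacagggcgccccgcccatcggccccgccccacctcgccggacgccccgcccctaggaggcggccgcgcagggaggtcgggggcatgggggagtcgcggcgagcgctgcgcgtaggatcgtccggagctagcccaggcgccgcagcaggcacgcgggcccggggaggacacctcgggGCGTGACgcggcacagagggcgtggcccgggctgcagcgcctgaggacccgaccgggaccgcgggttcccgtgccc
Bcat1: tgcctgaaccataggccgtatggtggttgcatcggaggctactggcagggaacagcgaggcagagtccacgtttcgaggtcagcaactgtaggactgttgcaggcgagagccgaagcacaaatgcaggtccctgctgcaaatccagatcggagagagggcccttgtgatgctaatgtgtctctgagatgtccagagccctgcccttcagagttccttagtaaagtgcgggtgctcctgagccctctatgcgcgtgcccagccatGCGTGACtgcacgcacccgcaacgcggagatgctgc
Dnajc15: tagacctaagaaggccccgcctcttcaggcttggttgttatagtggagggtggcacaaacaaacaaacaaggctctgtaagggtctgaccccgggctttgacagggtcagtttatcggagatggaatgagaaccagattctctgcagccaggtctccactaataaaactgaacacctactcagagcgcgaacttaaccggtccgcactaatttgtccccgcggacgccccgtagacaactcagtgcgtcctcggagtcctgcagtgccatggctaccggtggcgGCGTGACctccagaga

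Among the genes that rose, Ly86 led. It encodes MD-1, a secreted protein that pairs with the Toll-like receptor relative Cd180 on B cells. It measured 10.34, 8.84 and 8.82 on wild-type arrays 1, 2 and 3 and 10.95, 11.33 and 11.50 at the lowest, median and highest Pax5+/- array. Every Pax5+/- array lay above every wild-type array, and array 1 was the wild-type array nearest to them. The difference was 1.91 ± 0.27 (SE), 3.75-fold (limma adjusted p = 0.00373), and 2.41 without array 1, 5.31-fold (adjusted p = 1.43e-06). Ly86 also stands in the list of monocyte and macrophage genes, of which 13 of 14 tested members had a negative difference in both fits, Ly86 being the exception.

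Trib2, a pseudokinase gene known as an oncogene in myeloid leukemia, was nearly constant in Pax5+/- cells and scattered in wild-type cells. It measured 9.03, 11.22 and 9.67 on the wild-type arrays and 11.63 to 11.99 on the Pax5+/- arrays. The difference was 1.86 ± 0.33 (SE; limma adjusted p = 0.0177) and 1.38 without array 1 (adjusted p = 0.0216). The call ended without wild-type array 3 (1.71, adjusted p = 0.113).

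Mcoln2, an endolysosomal cation channel gene, was 8.51, 8.98 and 8.97 in wild-type and 9.79 to 10.51 in Pax5+/- cells (1.40, 2.63-fold, limma adjusted p = 0.00078). Stk38l, which encodes the kinase NDR2, was 7.33, 7.50 and 7.35 against 8.32 to 9.29 (1.37, 2.58-fold, adjusted p = 0.00373). Cenpv, a centromere protein gene, was 7.96, 7.76 and 7.75 against 8.64 to 8.95 (0.95, 1.93-fold, adjusted p = 0.000532). In all of these the wild-type arrays lay close together and below every Pax5+/- array.

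Tnnt2, the cardiac troponin T gene, rose by 1.03 (limma adjusted p = 0.0126), with wild-type values of 7.18 to 7.44 and Pax5+/- values of 7.86 to 8.82. Gnb4, a G-protein beta subunit gene, rose by 1.08 (adjusted p = 0.0208; 0.102 without wild-type array 3 and 0.0516 without array 2), with 6.38 to 7.37 against 7.56 to 8.31. Gtse1, expressed from S to G2 phase, rose by 1.20 (adjusted p = 0.0275) and by 1.62 without array 1 (adjusted p = 5.94e-05). Its call with all arrays ended without wild-type array 2 (adjusted p = 0.0784) or 3 (0.155) and without any of 5 Pax5+/- arrays (0.0514 to 0.0588). On wild-type array 1 it was 7.65, close to the lowest Pax5+/- value of 7.71, and on arrays 2 and 3 it was 6.45 and 6.32.

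Ifi44l, an interferon-induced gene, was 5.56, 5.62 and 5.62 in wild-type cells and 6.24 to 7.63 in Pax5+/- cells (1.36, limma adjusted p = 0.0237; 0.108 without wild-type array 3 and 0.0507 without array 2). Ifi44l is not representative of the type I interferon list. None of its 16 tested genes was called by limma in either fit (6 and 3 at an unadjusted p under 0.05), all 16 had a negative difference with all arrays, and their median was -0.28, or -0.13 without array 1.

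Markers of other marrow cells set wild-type array 1 apart from the other arrays. The mean over the 20 tested granulocyte genes was 9.98 on array 1, 6.61 and 6.64 on arrays 2 and 3, and 6.26 to 6.81 on the Pax5+/- arrays. Array 1 was alone, and the other wild-type arrays lay inside the Pax5+/- range. The list therefore had a median difference of -1.34 with all arrays and -0.10 without array 1, with 0 members called in the first and 1, Itgam (-0.69, limma adjusted p = 0.0113), in the second. S100a9, a neutrophil calcium-binding protein gene, shows the shift: its difference was -1.91 with all arrays and -0.17 without array 1.

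The same array was high in monocyte and macrophage genes (mean 7.85 against 6.63 and 6.72 on the other wild-type arrays), erythroid genes (8.53 against 6.96 and 6.95) and dendritic-cell genes (8.86 against 7.32 and 7.52). The Pax5+/- arrays ran from 6.63 to 6.86, 6.89 to 7.43 and 7.15 to 7.54 for these lists. H2-Ea and Ly6a2 were single genes with a large difference of array 1 from the rest. H2-Ea, an MHC class II chain gene that is silent in mice of the H2-b haplotype, was 5.90 on array 1 and 11.22 to 12.24 on the other 9 arrays. Ly6a2 was 11.08 on array 1, 5.74 and 6.36 on arrays 2 and 3, and 5.04 to 5.47 in Pax5+/- cells. What part other cell types or strain had in the differences of array 1 was not tested, and in bulk samples fewer cells of a type cannot be told apart from less RNA per cell.

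**Figure D3:**
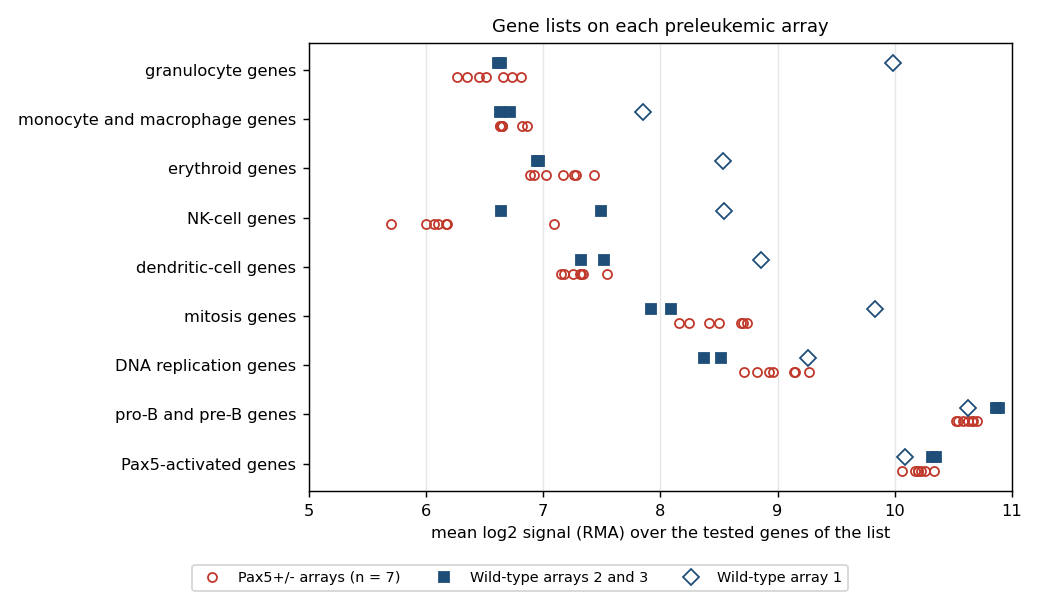
Each symbol is the mean log2 signal of a gene list on 1 preleukemic array (circles Pax5+/-, squares wild-type arrays 2 and 3, diamond wild-type array 1). Array 1 lies at 9.98 for granulocyte genes and 9.83 for mitosis genes, away from all others, and Pax5+/- arrays lie above wild-type arrays 2 and 3 for mitosis and DNA replication genes.

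NK-cell genes had negative differences with and without array 1. Their mean was 8.54, 6.64 and 7.49 on wild-type arrays 1, 2 and 3 and 5.70 to 6.18 on 6 Pax5+/- arrays, with 7.09 on Pax5+/- array 3. All 11 tested members had a negative difference in both fits, with a median of -1.35 with all arrays and -0.78 without array 1, but 0 were called by limma in either. At an unadjusted limma p under 0.05 the counts were 11 and 9 of 11, against 2039 and 2427 of all 15059 genes. Ncr1, the activating receptor NKp46, came nearest (-2.15, adjusted p = 0.0529; -1.48, adjusted p = 0.0904 without array 1), followed by Il2rb, the interleukin-2 receptor beta chain (-1.87, adjusted p = 0.0557; -1.30, adjusted p = 0.100). The count rested on single arrays: of the 11 members, 10 were called without wild-type array 2, 3 without Pax5+/- array 3, and 7 without both wild-type array 1 and Pax5+/- array 3. Over all 15059 genes, 258, 150 and 225 were called lower in these settings. Wild-type array 2 was the lowest wild-type and Pax5+/- array 3 the highest Pax5+/- array in these genes, so leaving either out widens their difference. Klra8, described above, was high on the same wild-type arrays as these genes, and the part of NK cells in its difference was not tested. Among T-cell genes 0 of 12 were called (limma; 6 at an unadjusted p under 0.05), and Thy1 came nearest (-1.08, limma adjusted p = 0.0807).

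Genes of the B lineage held calls in both directions. Of 29 tested genes that Pax5 is known to activate, 2 were higher and 1 lower with all arrays, against 0.538% and 1.17% of all genes. Without array 1, 1 was higher and 3 lower, against 0.963% and 1.43%. At an unadjusted limma p under 0.05 the counts were 9 and 10 of 29, against 2039 and 2427 of all 15059 genes. The list's median difference was -0.01 and -0.07, close to the -0.01 and -0.04 of all genes. Tnfrsf19, a TNF receptor family gene, rose from 9.23, 9.65 and 9.61 to values of 10.07 to 10.50 (0.82, limma adjusted p = 0.00461). Slamf6, an adhesion receptor gene, was 0.63 higher with all arrays (adjusted p = 0.0311) but 0.49 with an adjusted p of 0.0633 without array 1. The Slamf6 call also ended without wild-type array 3 (limma adjusted p = 0.0891) and without any of Pax5+/- arrays 3 to 7 (0.0534 to 0.061). Rasgrp3, which activates Ras downstream of the B-cell receptor, fell by 1.05 (adjusted p = 0.0154), and this call ended without wild-type array 2 (0.0507) or 3 (0.0769).

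Bach2, which encodes a transcriptional repressor, was called lower only in the fit without array 1 (-0.70, limma adjusted p = 0.0029), with -0.49 and an adjusted p of 0.107 with all arrays. Of 26 tested genes that Pax5 is known to repress, 0 were called in either fit (limma), and 21 had a negative difference with all arrays (median -0.34) and 20 without array 1 (median -0.12). With all arrays Il2rb, also an NK-cell gene, came nearest to a call (-1.87, limma adjusted p = 0.0557). The arachidonate gene Alox5ap followed (-1.54, adjusted p = 0.105). The size of this list's median thus moved with array 1, which was high in genes of several other lineages. At an unadjusted p under 0.05 the counts were 12 with all arrays and 8 without array 1.

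Genes of the pro-B and pre-B stages that were called were all lower. Their mean over 26 tested genes was 10.62 on wild-type array 1 and 10.86 to 10.89 on arrays 2 and 3, against 10.52 to 10.70 on Pax5+/- arrays. Differences were negative for 18 of 26 with all arrays and for 23 of 26 without array 1 (medians -0.07 and -0.20), and 0 were called higher and 3 lower in each fit, against 1.17% and 1.43% of all genes called lower (limma; 7 and 10 of 26 at an unadjusted p under 0.05). Kit, the stem cell factor receptor of early progenitors, was 7.43, 7.29 and 7.37 in wild-type and 6.40 to 6.74 in Pax5+/- cells, with no overlap (-0.77, limma adjusted p = 0.00114). Cnr2, the cannabinoid receptor of B cells, was 7.69, 8.39 and 8.51 against 6.70 to 7.43 (-1.14, adjusted p = 0.0137; 0.0983 without wild-type array 3).

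Tcf4, which encodes the E protein E2-2, was called with all arrays (-0.50, limma adjusted p = 0.0453) and not without array 1 (-0.41, adjusted p = 0.0942). Its call also ended without wild-type array 2 (0.0766) or 3 (0.0846) and without any of Pax5+/- arrays 2 to 7 (0.0519 to 0.0867). Cd2, an adhesion gene that marks late pre-B cells, was called without array 1 (-1.03, limma adjusted p = 0.0213). That call ended without wild-type array 2 (-1.01) or 3 (-1.04) as well. The recombination genes Rag1 and Rag2 and the surrogate light chain genes Igll1 and Vpreb1 were not called in either fit. Among 19 mature B-cell genes 0 were called by limma (1 and 9 at an unadjusted p under 0.05 with and without array 1), with medians of -0.11 and -0.26, and Ms4a1, which encodes CD20, had a difference of -0.60 (adjusted p = 0.244) and Cd22 of -0.32 (adjusted p = 0.382).

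Of the interleukin-7 receptor and JAK-STAT genes 0 of 15 were called in either fit (limma; 6 at an unadjusted p under 0.05 in each). Il7r itself was 0.43 higher (limma adjusted p = 0.0807) and Jak1 differed by -0.40 (adjusted p = 0.0648). Mzb1, an endoplasmic reticulum chaperone of antibody assembly, was the 1 plasma-cell gene of 13 that was called. It rose from 10.46, 10.93 and 10.79 to 11.32 to 11.59 without overlap (0.73, limma adjusted p = 0.00373; 0.60 without array 1).

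Notch2, which directs marginal zone B cells, was the 1 called member of 13 Notch and T-lineage genes. It measured 9.83, 9.56 and 9.56 in wild-type and 8.25 to 8.84 in Pax5+/- cells (-1.13, 2.18-fold lower, limma adjusted p = 0.000686), and it stayed a call with any 1 array left out in either fit.

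Genes of DNA replication and mitosis showed how much the picture of cell division rests on array 1. The 28 replication genes averaged 9.26 on wild-type array 1 and 8.37 and 8.52 on arrays 2 and 3, against 8.71 to 9.27 in Pax5+/- cells. Pax5+/- arrays thus lay above wild-type arrays 2 and 3, and array 1 lay at their upper end. With all arrays 26 of 28 differences were positive with a median of 0.26 and 0 were called (limma; 7 at an unadjusted p under 0.05). Without array 1 all 28 were positive, the median was 0.53 and 7 were called higher, against 0.963% of all genes. The 7 calls went to 0 without wild-type array 2 or array 3, where 1 wild-type array remained.

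Pcna, the sliding clamp, measured 12.31, 11.86 and 11.76 in wild-type and 12.24 to 12.57 in Pax5+/- cells (0.37, limma adjusted p = 0.15; 0.53, adjusted p = 0.01 without array 1). The helicase subunit genes Mcm2 and Mcm5 differed by 0.48 each with all arrays (adjusted p = 0.249 and 0.321) and by 0.74 and 0.80 without array 1 (adjusted p = 0.0204 and 0.0102). Rfc4, a subunit of the clamp loader, differed by 0.62 (adjusted p = 0.33) and 1.03 (adjusted p = 0.0175).

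The 24 mitosis genes were at 9.83 on array 1, 7.92 and 8.09 on arrays 2 and 3, and 8.16 to 8.74 in Pax5+/- cells. Their median difference changed sign, from -0.16 with all arrays to 0.44 without array 1, and the number of positive differences went from 6 to 23. With all arrays limma called 0, also 0 at an unadjusted p under 0.05, and without array 1 it called 3 of 24 higher, against 0.963% of all genes, among them Mad2l1 of the spindle checkpoint (0.85, limma adjusted p = 0.00905) and Top2a, topoisomerase II alpha (0.98, adjusted p = 0.0429). Top2a was 11.27, 8.89 and 8.88 on the wild-type arrays and 9.25 to 10.28 on Pax5+/- arrays, so Pax5+/- cells lay between array 1 and the other wild-type arrays. With all arrays its difference was 0.19 (adjusted p = 0.933). The mitosis calls also went to 0 without wild-type array 2 or 3.

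Damage sensing and checkpoint genes followed the same pattern, with 0 of 22 called with all arrays (limma; 3 at an unadjusted p under 0.05) and 4 called higher without array 1, against 0.963% of all genes (11 at an unadjusted p under 0.05). These were Cdc25a, the phosphatase that releases S phase (1.05, limma adjusted p = 0.00373), Tipin of the fork protection complex (1.11, adjusted p = 0.0161), the kinase gene Chek1 (0.88, adjusted p = 0.0314) and the ubiquitin ligase gene Rnf168 (0.39, adjusted p = 0.0415). With all arrays their differences were 0.72, 0.58, 0.46 and 0.20, with adjusted p from 0.131 to 0.511. The count was 0 without wild-type array 2 and 1 without array 3.

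The title of the study names the DNA-damage response, and among the repair genes Xrcc1 was called with and without array 1. Xrcc1, the scaffold of single-strand break repair, was 8.46, 8.49 and 8.56 in wild-type and 9.06 to 9.47 in Pax5+/- cells. The wild-type values were tightly grouped and none overlapped. The difference was 0.71 ± 0.09 (SE), 1.63-fold (limma adjusted p = 0.00246), and 0.68 without array 1, where the call ended if wild-type array 2 or 3 was left out too (adjusted p = 0.0716 and 0.0944). It was the 1 of 24 base-excision, mismatch and nucleotide-excision repair genes called with all arrays. Without array 1 the glycosylase gene Neil3 was called by limma too (0.87, adjusted p = 0.0468; 0.18, adjusted p = 0.924 with all arrays), a call that ended without any of 7 further arrays (adjusted p = 0.0509 to 0.346). The neighbours of Xrcc1 on chromosome 7, Zfp428 and Irgq, were also called higher in both fits (0.61 and 0.86 with all arrays).

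None of 23 homologous recombination and Fanconi genes, 16 end-joining genes, 24 p53 target genes or 14 BCL2 family genes was called by limma in either fit. Their medians lay between -0.06 and 0.19 in both fits. At an unadjusted p under 0.05 the counts in this order were 2, 3, 5 and 1 with all arrays and 9, 3, 5 and 2 without array 1. The nearest end-joining genes were Lig4 (0.40, adjusted p = 0.157) and Parp1 (0.20, adjusted p = 0.222), and the nearest p53 targets were Xpc (-0.20, adjusted p = 0.184) and Plk3 (-0.23, adjusted p = 0.237). With 3 wild-type arrays, small shifts may lie below what this comparison can detect.

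In metabolism, the glycolysis genes Pfkp (-0.63, limma adjusted p = 0.0237) and Aldoa (-0.40, adjusted p = 0.0336) were called lower of 14 with all arrays, and neither was called without array 1 (adjusted p = 0.0523 and 0.0519). Both calls also ended without wild-type array 3 (limma adjusted p = 0.113 and 0.161) or Pax5+/- array 7 (0.0516 and 0.0744). The Aldoa call ended without any of Pax5+/- arrays 1 to 4 too (0.0575 to 0.0675). Of 17 cytosolic ribosomal protein genes 1 was called, Rps9, which rose from 11.75, 11.52 and 11.41 to 12.04 to 12.17 (0.52, adjusted p = 0.00461; 0.61 without array 1). The NF-kB gene Bcl3 (-0.54, adjusted p = 0.0214) and the sphingosine phosphate receptor gene S1pr4 (-0.47, adjusted p = 0.0357) were called without array 1 alone, and both calls ended without wild-type array 2 or 3.

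The leukemic arrays showed which of these genotype differences were also present in independent samples. In the comparison of 10 Pax5+/- with 4 wild-type leukemias 1 gene of 15059 was called (0.00664%), and that gene was Ly86. It measured 9.40 to 11.12 in wild-type and 12.04 to 12.48 in Pax5+/- leukemias, so the groups did not overlap. The difference was 2.16 ± 0.23 (SE), 4.47-fold (limma adjusted p = 0.0033), and 1.94 to 2.51 with each wild-type leukemia left out, with adjusted p of at most 0.0268. Ly86 was thus above every wild-type array of its stage on 7 of 7 preleukemic and 10 of 10 leukemic Pax5+/- arrays.

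Of the 58 genes called higher in both preleukemic fits, 41 (70.7%) were also higher in Pax5+/- leukemias, against 50.6% of all genes with a positive preleukemic difference, and 10 (17.2% against 3.2%) did so at an unadjusted limma p under 0.05. Of the 126 genes called lower, 64 (50.8%, against 50.6%) were also lower, 6 of them (4.76% against 4.08%) at that level. The lower genes thus matched the background share and the higher genes stood above it, though genes are not independent of each other and this contrast between directions was not tested. Gnb4, with a leukemic difference of 1.66 (adjusted p = 0.188), was the largest leukemic difference of the leading risers after Ly86.

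The difference between stages was tested as an interaction over all 24 arrays, where limma called 30 genes (52 without wild-type array 1), several of them among the leading falls. Y-linked genes were high on 3 of 3 preleukemic and 0 of 4 leukemic wild-type arrays, and on 4 of 7 and 5 of 10 Pax5+/- arrays, so in wild-type samples stage and sex cannot be told apart. Slc1a5 remained lower in Pax5+/- leukemias in direction (7.98 to 9.13 against 9.25 to 9.96, difference -1.20, limma adjusted p = 0.188), and the stages differed by -1.95 (adjusted p = 0.00348), with wild-type leukemias nearer to Pax5+/- values than wild-type preleukemic cells were. Dock9 turned from -1.72 to 1.06 in leukemia, where it was not called (limma adjusted p = 0.469). Its stages differed by -2.79 (adjusted p = 0.000899). Edaradd was 5.73 to 6.52 in all leukemias, below every preleukemic array, with a genotype difference of -0.02 (stages differed by -1.95, adjusted p = 0.000228). Apobec3 differed by 0.39 in leukemia, with values spread from 8.85 to 11.61, and its stage difference of -2.95 did not pass (adjusted p = 0.0809).

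**Figure D4:**
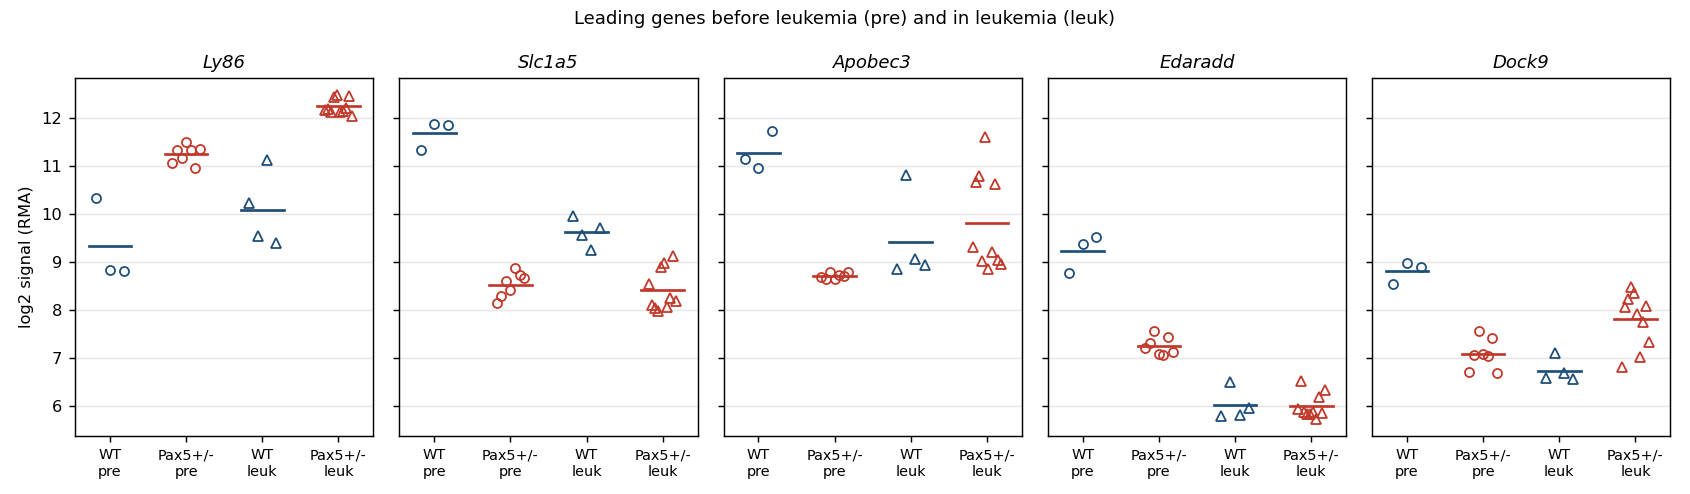
Each panel shows the log2 signal of a gene on every array, by genotype and stage (circles preleukemic, triangles leukemic, bars the group mean; n = 3, 7, 4 and 10 from left to right). Ly86 is higher in Pax5+/- at both stages and Slc1a5 is lower in both, with a smaller gap in leukemia. The gap of Edaradd before leukemia is not seen in leukemia. The mean difference of Dock9 has the opposite sign there, without a call.

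The called genes were spread over the chromosomes. The share of tested genes called in both fits was highest on chromosome 6 (19 of 770, 2.47%), followed by chromosomes 15 (2.15%) and 3 (2.11%), and 0 of 423 on the X chromosome were called, against 1.22% overall. Among the 20 tested genes nearest to Pax5 on chromosome 4, 1 was called, Gne, 3 places away, which encodes the first enzymes of sialic acid synthesis (-0.60, limma adjusted p = 0.0439; -0.78 without array 1, adjusted p = 0.00316). With all arrays its call ended without any of 8 single arrays. In all, 42 of the 184 genes lay within 5 places of another, in 19 runs, such as Apobec3 beside Cbx7 on chromosome 15, both lower. How many of 184 genes placed at random would do so was not measured, so the count does not tell whether they cluster.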

How the data were processed

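Total RNA was extracted with Trizol and biotin-labelled for arrays, per the labels' protocols. The authors deposited log2 values after robust multi-array averaging (RMA with oligo, an R package, as the submitters' processing notes list them; versions and other steps not given in the sources used here), and these were used without further scaling. Of 35556 probe sets, 21789 named 1 gene in the platform table, 1621 several and 12146 none; a gene took its brightest probe set. A gene was tested if it reached the array's 30th percentile (5.26 to 5.35) on at least 3 preleukemic arrays, which 15059 of 19938 genes did. Groups were compared with limma 3.58.1 in R 4.3.3 (lmFit, eBayes, two-sided) and Benjamini-Hochberg adjustment over all genes tested, and Pax5 with an exact permutation test over arrays. The fit was tested on simulated data. Gene lists and members were chosen with earlier results of these data known. Named were Pax5, the 10 largest rises and falls called in both fits without overlap (Prxl2c, also among them, is not described), genes that array 1 sets apart, and called or nearest members of each list. Bcat1, Dclk2, Myo10, Dnajc15, Zfp428, Irgq, Cbx7 and the genes under other observations were chosen after their values were seen. The number of arrays, 3 against 7, limits the precision. Same-numbered arrays of the groups did not deviate together (r = -0.118, -0.147 and -0.37), so the numbers were not used as pairs. With 3 such pairs this does not exclude pairing. No pair of arrays was a duplicate (highest r 0.9945).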

Additional observations from a re-analysis of the deposited data

Results flagged for a closer look

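Of the 30 genes called by limma in the interaction (52 without wild-type array 1), 8 are named here. Their genotype difference before leukemia differed from that in leukemia by the test of the interaction over all 24 arrays (limma, adjusted p under 0.05). The preleukemic minus leukemic difference was -1.95 for Slc1a5 (adjusted p = 0.00348), -1.95 for Edaradd (adjusted p = 0.000228) and -2.79 for Dock9 (adjusted p = 0.000899). It was -2.07 for the NK-cell receptor gene Klra8 (adjusted p = 0.0248), -1.62 for Klhl14 (adjusted p = 0.0096) and -1.55 for Tmc7 (adjusted p = 3.38e-05). In leukemias of both genotypes Klra8 ran from 4.45 to 4.68, Tmc7 from 4.97 to 5.23 and Klhl14 from 5.18 to 5.47. These values lay near or below the preleukemic dim level of 5.26 to 5.35, where a genotype difference could hardly show. For these genes the interaction therefore restates the difference before leukemia. For Notch2 it was -1.42 (adjusted p = 0.011) and for the growth kinase gene Mtor -0.63. The leukemic samples are labelled B cells or tumor-bearing marrow and the preleukemic samples pro-B and pre-B cells, so the stage and the kind of sample cannot be told apart. Y-linked genes were high on 3 of 3 preleukemic and 0 of 4 leukemic wild-type arrays, so in the wild type stage and sex cannot be told apart either.

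On single Pax5+/- arrays 3 values lay far from the other 6 by Dixon's criterion, which chance meets in about 5% of groups. Many genes were looked at, so chance alone would give some such values, and these were not tested against it. Array 3 was highest in the NK-cell genes Ncr1 (7.07) and Il2rb (7.79), and array 7 was highest in Rps9 (12.17). Without Pax5+/- array 3, limma called 3 of the 11 NK-cell genes lower, against 150 of all 15059 genes.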

How the results depend on the processing

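The 257 calls with all arrays became 125 with 4 group means fitted on 24 arrays, 394 with array weights, 157 with a term for Y-linked genes, 80 on arrays with high Y-linked genes, 153 without Pax5+/- arrays 1 and 4 together, and 105 to 360 with 1 array left out. The 360 calls without wild-type array 1 became 162 with 4 group means and 47 to 450 with a further array left out, 159 without wild-type array 2 and 47 without array 3. With the replicate number as a block, which uses only the shared numbers, the calls were 1 and 638. The 638 calls rest on 2 shared numbers, which measure the spread poorly. Pax5 differed by -0.52 with the block (exact permutation p = 0.25, the smallest p that 3 pairs allow). The Pax5 difference stayed between -0.65 and -0.31 with 1 array left out. Other filters, scalings, eBayes priors and probe-set rules gave 223 to 306 and 320 to 448 calls. The same-sign count of 105 in leukemia ran from 104 to 114 with 1 wild-type leukemia left out. No call changed direction. Uncalled values changed sign for H2-Ea without array 1 (-0.23 with the block, -0.10 to 0.65 with a further array left out), S100a9 without array 1 (0.02 with the Y-linked term, 0.02 on arrays with high Y-linked genes, 0.34 with the block), Mad2l1 with all arrays (-0.00 without wild-type array 2, 0.85 without array 1), Top2a (-0.21 without wild-type array 2 or 3, 0.98 without array 1) and Neil3 (-0.18 and -0.15 without wild-type array 2 and 3, 0.87 without array 1). The cause of these changes was not tested.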

Other observations

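Among the 96 genes called with any single array left out were several outside the lists described above, picked here after their values were seen. Of the lower ones, Wrn, the helicase of Werner syndrome, averaged 8.98 in wild-type and 8.17 in Pax5+/- cells (-0.81, limma adjusted p = 0.00574), and Klf3, a Krüppel-like repressor, averaged 8.95 and 8.00 (-0.95, adjusted p = 0.000792). Stat4, which transmits interleukin-12 signals, differed by -1.13 (adjusted p = 0.0109), Mtor by -0.52 (adjusted p = 0.00373) and Ripk3, a kinase of necroptosis, by -0.48 (adjusted p = 0.00369). Of the higher ones, Nlrc4, an inflammasome sensor, averaged 6.63 in wild-type and 7.34 in Pax5+/- cells (0.72, adjusted p = 0.00275). The peptidase gene Dpp4 was higher by 0.53 (adjusted p = 0.00367). Scin, an actin-severing protein gene, was higher by 0.70 (adjusted p = 0.00172), and its leukemic difference was 0.72 without a call (adjusted p = 0.937). In the fit without wild-type array 1, the calls of Wrn, Stat4, Mtor, Ripk3, Nlrc4, Dpp4 and Scin ended without array 3 too. A single wild-type array remained there.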
